A study of Mus musculus with 5 samples.

Results

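Canonical Wnt signalling is read out by a small set of genes that beta-catenin switches on together with the TCF and LEF factors, and many of these genes feed back on the pathway. Without a Wnt signal a destruction complex built on Axin and Apc marks beta-catenin for removal; with it, beta-catenin enters the nucleus and binds TCF and LEF proteins on DNA. In the developing brain the pathway is known for keeping progenitors dividing and for patterning the dorsal and posterior neural tube. The genes described here are 9 of its usual readouts, Axin2, Lef1, Tcf7, Nkd1, Ccnd1, Lgr5, Sp5, Rnf43 and Znrf3. They were found on the arrays as every non-control probe whose gene name equals 1 of these symbols, which gave 13 probes of 55681 and 9 of the 36163 gene names on the array. Axin2, Lef1, Tcf7 and Nkd1 had 2 probes each and the other 5 genes had 1.

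Total RNA of mouse cells was hybridised to 5 single-colour arrays, 1 array per sample. The samples were chemically induced neural progenitor cells (ciNPC) at passage 13 (p13, 2 arrays) and at passage 5 (p5, 1 array), neural progenitor cells from brain (NPC, 1 array, the control of the study) and mouse embryonic fibroblasts (MEF, 1 array). The ciNPC were made from fibroblasts with chemical cocktails under hypoxia; the published cocktail includes an inhibitor of glycogen synthase kinase, an enzyme of the destruction complex, and the labels do not say whether it was present when RNA was taken. The labels give no strain, age or genotype. Whether the pair of p13 samples were separate cultures is not stated either, so the variation between them may be only technical. The p-values of ciNPC against MEF and NPC treat the p5 and p13 arrays as replicates of 1 group. The variation behind those p-values thus includes any difference between passages.

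Values are log2 of the processed signal minus the 75th percentile of the array, so a value of 0 is that percentile. The share of spots marked well above background lay between 47.9% and 57.6% over the 5 arrays. The 3 ciNPC arrays lay on slide 2, and NPC and MEF on slide 1, so in each comparison of ciNPC with NPC or MEF, slide and cell type cannot be told apart. Comparisons of NPC with MEF and of p13 with p5 stayed on 1 slide. The spike-in slope of p13 replicate 2 (0.803) was outside the range that the scanner software accepts, and the other 4 were inside it. All 5 neural progenitor markers (Sox2, Nes, Olig2, Fabp7 and Pax6) were well above background on each ciNPC array and in NPC, and 2 of 5 were in MEF. All 5 fibroblast markers (Col1a1, Col1a2, Thy1, Twist2 and Pdgfra) were well above background on each ciNPC array and in MEF, and 3 of 5 were in NPC. Their summed level, in multiples of the array's 75th percentile, was 171 to 238 in ciNPC, 0.801 in NPC and 1427 in MEF. The markers did not fall alike from MEF to ciNPC. Twist2 read 2.80 in MEF and 1.83 to 2.23 in ciNPC, and Pdgfra 1.00 and 0.13 to 0.65, smaller drops than those of Col1a1, Col1a2 and Thy1. Of 4 markers each, 1 to 3 were well above background on any array for macrophages, 2 for endothelial cells and 1 to 3 for epithelial cells. These are bulk samples, in which fewer cells of a type and less RNA per cell cannot be told apart, and the part of fibroblast RNA in the results was not tested.

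Of the 13 probes, 7 were well above background on all 5 arrays, 2 on 4, 1 on 3, 2 on 1 and 1 on none. These were single spots on each array, with no saturated spot among them. The tested set held 12 of the 13, since a probe had to be well above background in all samples of 1 group or more, and a Tcf7 probe did not meet this. Rnf43 entered through the p5 array alone and Sp5 through the NPC array alone, so counts over the 12 describe the probes that passed this filter.

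**Figure D1:**
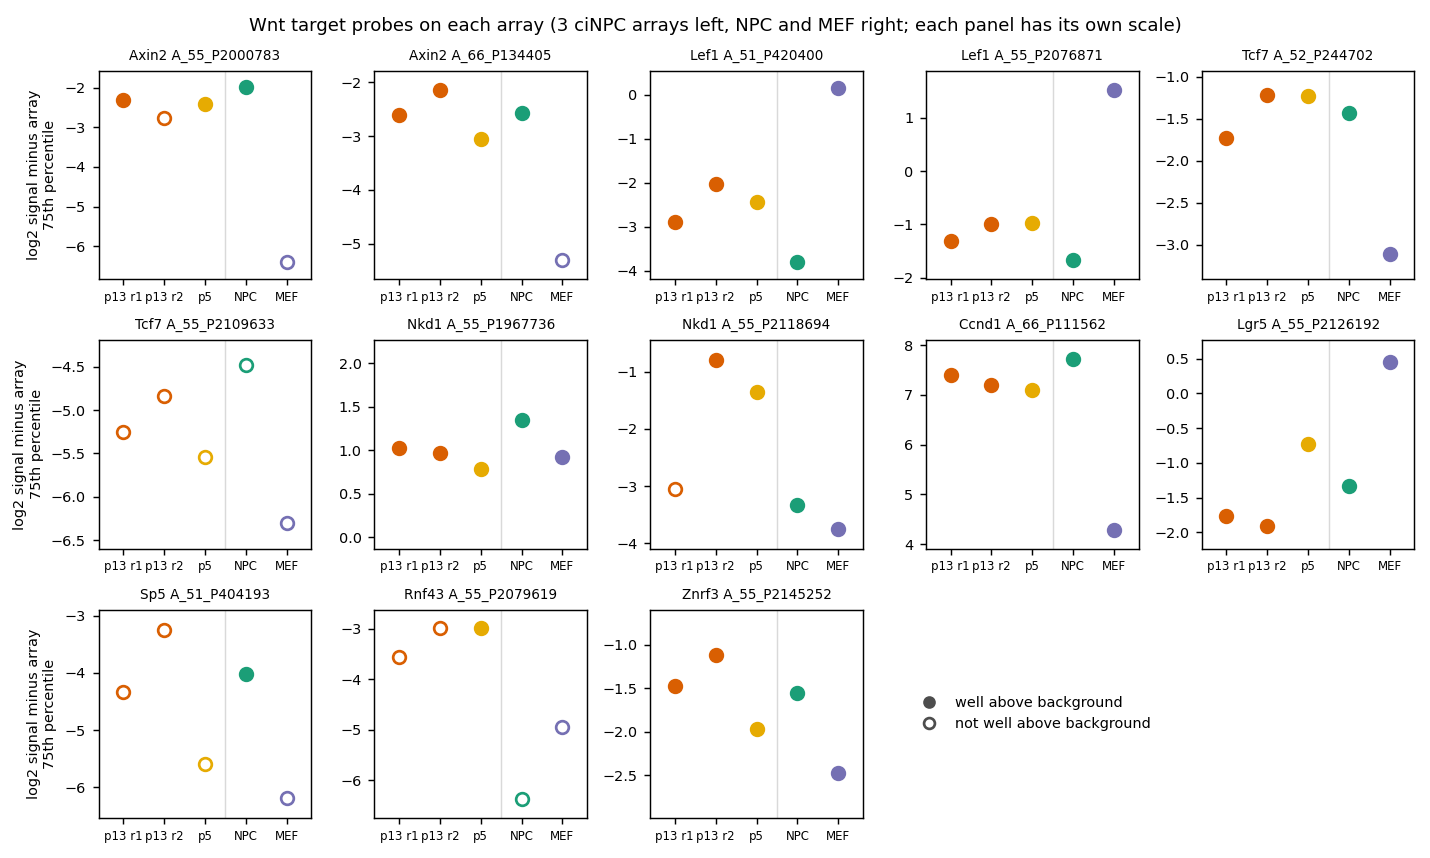
Log2 signal minus the array's 75th percentile (vertical axes, a scale of its own in each panel) for the 13 probes on the 3 ciNPC arrays, NPC and MEF; filled points were well above background and open points were not. Lef1 and Lgr5 sit highest in MEF, Ccnd1, Axin2 and the first Tcf7 probe lowest there, and the Nkd1 probes differ in pattern.

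In ciNPC against MEF the target genes did not move as 1 block. Axin2, Tcf7 and Ccnd1 were higher in ciNPC, Lef1 and Lgr5 were lower, and Nkd1, Znrf3, Rnf43 and Sp5 did not pass. By limma over all 35616 probes tested, with a Benjamini-Hochberg adjusted p under 0.05 and at least a 2-fold difference, 7 of the 12 tested probes passed, 4 higher and 3 lower. Of all probes tested, 24% passed in either direction, 12.8% higher and 11.2% lower.

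Axin2 encodes the scaffold of the destruction complex that the pathway itself induces, and is its most widely used negative feedback readout. Its probes lie on chromosome 11 (mm9, plus strand), at chr11:108812034-108812093 for A_55_P2000783 and chr11:108803927-108803986 for A_66_P134405. The first 30 of their 60 bases are shown because these are 2 separate stretches of the same transcript that gave the same direction.
A_55_P2000783: cttggtacaataattattgtaattaagaga
A_66_P134405: tcctgggggaacagattattattgctactc
The probe A_55_P2000783 read -2.31 and -2.77 in ciNPC p13 and -2.42 in ciNPC p5, against -1.99 in NPC and -6.41 in MEF. The probe A_66_P134405 read -2.60 and -2.14 in ciNPC p13 and -3.05 in ciNPC p5, against -2.57 in NPC and -5.30 in MEF. Neither probe was well above background in MEF, and every ciNPC array lay above it. The ciNPC arrays stood at 58.2% to 80% of the NPC level by the first probe and at 71.7% to 135% by the second. Since the MEF values are only bounds, Axin2 was at least 3.84-fold higher in ciNPC by the first probe and at least 3.59-fold higher by the second. The fitted log2 differences were 3.90 (adjusted p 0.00309, 3 ciNPC arrays against 1, limma) and 2.70 (adjusted p 0.0174, limma). They use the MEF values as read, so these p-values do not test the bounds. The first probe was not well above background on p13 replicate 2. It did not pass with quantile normalisation (adjusted p 0.0649, limma) or in the deposited value table (adjusted p 0.065, limma). These bounds hold on the processed signals; with normexp background correction, whose offset draws dim values together, the log2 differences were 1.44 and 1.05. The second probe did not pass with normexp (adjusted p 0.077), without the filter on dim probes (0.0585) or without p13 replicate 1 (0.0826, with the difference still 2.70), all by limma.

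Lef1 and Tcf7 encode DNA-binding partners of beta-catenin and are themselves among its targets, and they moved in opposite directions. The Lef1 probes lie on chromosome 3 (mm9, plus strand). The 60 bases of A_51_P420400 span chr3:130907851-130926012, a stretch of 18162 bases, so its bases are not contiguous in the genome; A_55_P2076871 lies at chr3:130926200-130926259. Their first 30 bases are shown because both probes, placed on different stretches, gave almost the same difference.
A_51_P420400: gtacaggtcccagaatgacagctgcctaca
A_55_P2076871: actgcaagcgccgacttccaaaaagaaagc
The probe A_51_P420400 read -2.89 and -2.02 in ciNPC p13 and -2.44 in ciNPC p5, against -3.79 in NPC and 0.15 in MEF. The probe A_55_P2076871 read -1.31 and -0.99 in ciNPC p13 and -0.98 in ciNPC p5, against -1.67 in NPC and 1.53 in MEF. In both, MEF stood far above the other arrays, the ciNPC arrays lay between, and NPC was lowest. The log2 difference of ciNPC from MEF was -2.61 (SE 0.49, adjusted p 0.00687, limma) and -2.62 (SE 0.28, adjusted p 0.00071, limma). On the single arrays Lef1 kept between 12.1% and 22.1% of its MEF signal by either probe. Because Lef1 and Tcf7 are also known for their role in T cells, T cell markers were read beside them. Of 5 such markers (Cd3e, Cd3g, Cd4, Cd8a and Lck), 3 or 4 were well above background on each array, Cd3g was on none, and their summed level was 3.65 to 6.28 in ciNPC, 4.47 in NPC and 11.6 in MEF; their part in the Lef1 result was not tested.

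Tcf7 was measured by 1 of its 2 probes. The probe A_52_P244702 (mm9, chr11:52066114-52066173, minus strand) read -1.73 and -1.22 in ciNPC p13 and -1.23 in ciNPC p5, against -1.43 in NPC and -3.11 in MEF. MEF was lowest and the NPC value lay inside the ciNPC range. The log2 difference of ciNPC from MEF was 1.72 (SE 0.39, adjusted p 0.015, limma); with quantile normalisation it was 1.46 and the adjusted p 0.0511. The other probe, A_55_P2109633 (chr11:52066738-52066797), was not well above background on any array and gives no second reading. The first 30 bases of both are shown since only the first hybridised measurably.
A_52_P244702: ttttttcattctcgctgtagatagcctgaa
A_55_P2109633: ccaatacttcttggaccaagaatacctggt

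Ccnd1, the gene of cyclin D1, which drives cells out of the first gap phase of the cycle, had the smallest standard error of the 12 tested probes in this comparison. Its probe A_66_P111562 (mm9, chr7:152116202-152116261, minus strand) had processed signals of 65050 and 56821 in ciNPC p13 and 72958 in ciNPC p5, against 115467 in NPC and 9970 in MEF. On the normalised log2 scale these were 7.39 and 7.20 in ciNPC p13 and 7.11 in ciNPC p5, against 7.73 in NPC and 4.29 in MEF. The ciNPC arrays lay close together (SD 0.14, n = 3), above MEF and below NPC. Ccnd1 was 7.71-fold higher in ciNPC than in MEF, a log2 difference of 2.95 (SE 0.15, adjusted p 4.76e-05, limma). It passed in every alternative tried.

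Lgr5, a receptor for R-spondins that marks Wnt-dependent stem cells in several tissues, fell. Its probe A_55_P2126192 (mm9, chr10:114887403-114887462, minus strand) read -1.77 and -1.92 in ciNPC p13 and -0.73 in ciNPC p5, against -1.34 in NPC and 0.45 in MEF. MEF was highest, p5 came next, and the NPC value lay between p5 and p13. The log2 difference of ciNPC from MEF was -1.92 (SE 0.50, adjusted p 0.0242, limma). It did not pass with quantile normalisation (adjusted p 0.0979), in the deposited value table (0.0978) or without the intensity trend (0.109), all by limma.

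Znrf3 and Rnf43 encode membrane ubiquitin ligases that remove Wnt receptors and that R-spondins with Lgr5 hold in check. Znrf3 (A_55_P2145252, mm9, chr11:5180918-5180977, minus strand) read -1.47 and -1.11 in ciNPC p13 and -1.96 in ciNPC p5, against -1.55 in NPC and -2.47 in MEF. Every ciNPC array lay above MEF, and the difference of 0.96 (95% interval -0.08 to 2.00) did not pass. Without the p5 array it was 1.18 (adjusted p 0.04, limma) and passed. Rnf43 (A_55_P2079619, mm9, chr11:87548958-87549017, plus strand) was well above background on the ciNPC p5 array alone, at -2.99, and read -3.56 and -2.99 in ciNPC p13, -6.37 in NPC and -4.94 in MEF. It did not pass against MEF (adjusted p 0.182, limma), nor without the filter on dim probes, but did without the intensity trend (adjusted p 0.0493, limma). Since Rnf43 entered the tested set through the p5 array alone and was dim in MEF and p13, no difference is drawn from that pass.

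Nkd1 encodes a Dishevelled-binding antagonist that is induced by the pathway, and its 2 probes gave different patterns. Both lie on chromosome 8 (mm9, plus strand), A_55_P1967736 at chr8:91116160-91116219 and A_55_P2118694 at chr8:91118468-91118527. Their first 30 bases are shown because the reading depends on which of them is taken.
A_55_P1967736: cactaatatttagccagccttcatgtagaa
A_55_P2118694: taagagatcaaggtagcgcataaaggctta
The probe A_55_P1967736 read 1.02 and 0.97 in ciNPC p13 and 0.78 in ciNPC p5, against 1.35 in NPC and 0.93 in MEF, so the MEF value lay inside the ciNPC range. The probe A_55_P2118694 read -3.05 and -0.80 in ciNPC p13 and -1.35 in ciNPC p5, against -3.34 in NPC and -3.74 in MEF. Here the p13 arrays stood far apart, and the lower of them was not well above background. The log2 difference of ciNPC from MEF was -0.00048 by the first probe (95% interval -0.44 to 0.44) and 2.01 by the second (95% interval -0.06 to 4.08, adjusted p 0.124, limma). The second passed without p13 replicate 1, at 2.67 (adjusted p 0.00222, limma), and with normexp, at 1.34 (adjusted p 0.0419, limma).

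Sp5, a zinc finger factor induced by the pathway that acts on its other targets, was near or below detection. Its probe A_51_P404193 (mm9, chr2:70315688-70315747, plus strand) was well above background in NPC alone, at -4.02, and read -4.34 and -3.24 in ciNPC p13, -5.60 in ciNPC p5 and -6.19 in MEF. No fold is given for ciNPC against MEF, where both were dim.

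**Figure D2:**
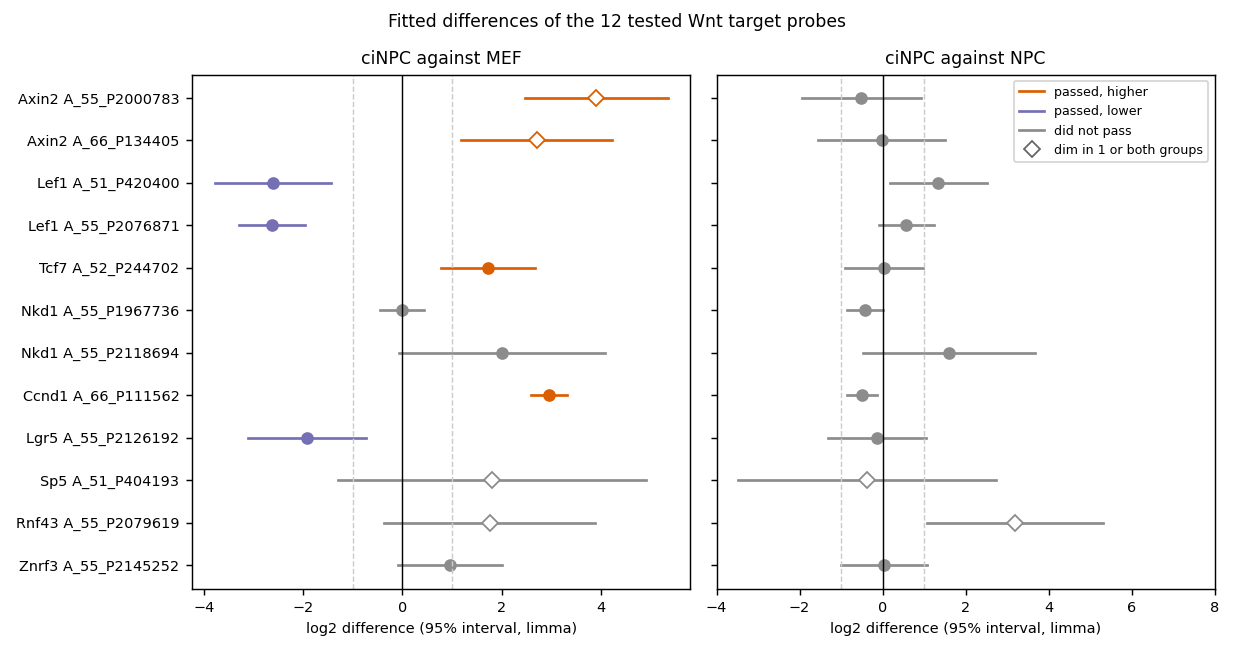
Log2 difference with its 95% interval (limma) of the 3 ciNPC arrays from MEF (left) and from NPC (right) for the 12 tested probes; dashed lines mark 2-fold, and open diamonds are probes dim in 1 or both groups, whose fitted value is no measured fold. On the left 4 probes passed higher and 3 lower; on the right none passed.

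In ciNPC against NPC, the control, none of the 12 tested probes passed by limma, while 2.76% of all probes tested passed, 2.71% higher and 0.0505% lower. At an unadjusted p under 0.05 (limma) were 3 of the 12, beside 4415 of all 35616 probes. A difference below 2-fold was fitted for 9 of the 12. The probes that passed at the unadjusted level were Lef1 A_51_P420400 with a log2 difference of 1.34 (95% interval 0.17 to 2.51), Ccnd1 with -0.50 (-0.85 to -0.14) and Rnf43. Each ciNPC array held 65.1% to 79.2% of the NPC signal of Ccnd1, and all 3 lay below NPC. Lef1 lay above NPC on all 3 ciNPC arrays by both probes, by 0.57 (95% interval -0.09 to 1.23) for A_55_P2076871. Rnf43 was not well above background in NPC and was on 1 of 3 ciNPC arrays, so no fold is given (adjusted p 0.181, limma).

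Around NPC the other intervals were wide. They ran from -1.95 to 0.92 and from -1.55 to 1.499 for the Axin2 probes, from -0.90 to 0.97 for Tcf7, from -1.32 to 1.05 for Lgr5 and from -1.005 to 1.08 for Znrf3. Differences anywhere inside an interval remain compatible with these arrays, so similar levels are not shown. For the Nkd1 probe A_55_P1967736 the interval was -0.87 to 0.01, and all 3 ciNPC arrays read below NPC. For A_55_P2118694 it was -0.47 to 3.67. Sp5 had an interval of -3.48 to 2.73 and was not well above background on any ciNPC array.

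NPC against MEF was a comparison within 1 slide, with 1 array each and no test. At least 4-fold differences, after values under an array's lowest well-above-background signal were raised to it, were seen for 4 of the 12 probes, while 14.7% of all tested probes lay that far apart (7.21% higher, 7.52% lower). Axin2 A_55_P2000783 was at least 5.47-fold higher in NPC and Ccnd1 was higher by 3.44 log2 units, while Lef1 differed by -3.95 and -3.19. With normexp 3 of the 12 probes lay that far apart, and the Axin2 probe, at 1.07 with dim values raised or 1.51 as measured, was not among them. The second Axin2 probe, A_66_P134405, was at least 3.66-fold higher in NPC and so was not among the 4. The other measured differences were 1.69 for Tcf7, 0.92 for Znrf3, 0.43 and 0.41 for the Nkd1 probes and -1.79 for Lgr5. Both this comparison and ciNPC against MEF use the same MEF array, which lay on the slide of NPC.

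On a scale with MEF at 0 and NPC at 1, drawn for those 4 probes, the ciNPC arrays stood at 0.902 and 0.847 (p13) and 0.820 (p5) for Ccnd1. For Lef1 A_55_P2076871 they stood at 0.890 and 0.789 (p13) and 0.785 (p5), and for A_51_P420400 at 0.772 and 0.552 (p13) and 0.659 (p5). Axin2 A_55_P2000783 stood at 0.868 and 0.682 (p13) and 0.823 (p5), with MEF set at its detection floor. No array reached NPC on any of these probes, but none of the 4 passed against NPC. They were chosen by the gap between the same NPC and MEF arrays that set the scale. With normexp the difference of ciNPC from NPC was -0.06 for Axin2 A_55_P2000783. The mean over the 3 arrays was 0.856 ± 0.0418 for Ccnd1, 0.821 ± 0.0595 and 0.661 ± 0.110 for the Lef1 probes, and 0.791 ± 0.0970 for Axin2 (SD, n = 3).

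Between passages 1 of the 12 probes passed, the Lgr5 probe, with 0.651% of all probes passing (0.216% lower). It was lower in p13 than in p5 by a log2 difference of -1.12 (SE 0.31, adjusted p 0.0437, limma with 1 residual degree of freedom), and both p13 arrays read below p5. The call was lost in 6 of 8 alternatives, with a difference of -0.71 to -1.42. For the other 11 probes the difference did not pass. It was 0.19 for Ccnd1 (95% interval -0.07 to 0.45), -0.01 and -0.17 for the Lef1 probes and -0.25 for Tcf7. Axin2 gave -0.12 and 0.68 by its probes, and Znrf3 0.67. With either p13 array alone set against p5, without a test, the differences were 0.42 and -0.45 for Lef1 A_51_P420400, 0.0024 and -0.51 for Tcf7, -0.35 and 0.11 for Axin2 A_55_P2000783 and 0.56 and -1.70 for Nkd1 A_55_P2118694. Their direction thus depended on which p13 array was used.

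The promoters of the members were read for the core TCF motif, as CTTTGAA or CTTTGAT on either strand, in RefSeq sequence of GRCm38.p6 from 250 bases before to 50 after each start. Entries were matched for 6 of the 9 genes, with 11 promoters (Ccnd1, Lgr5 and Znrf3 had none in the table). A motif stood in 1 of the 11, while 8.65% of all 32851 promoters of this length held either motif (5.14% CTTTGAA, 3.73% CTTTGAT). That promoter was the one of Sp5 (chr2:70474673-70474972, plus strand), shown because it alone holds the motif, in capitals, which begins 104 bases before the start.
Sp5 promoter: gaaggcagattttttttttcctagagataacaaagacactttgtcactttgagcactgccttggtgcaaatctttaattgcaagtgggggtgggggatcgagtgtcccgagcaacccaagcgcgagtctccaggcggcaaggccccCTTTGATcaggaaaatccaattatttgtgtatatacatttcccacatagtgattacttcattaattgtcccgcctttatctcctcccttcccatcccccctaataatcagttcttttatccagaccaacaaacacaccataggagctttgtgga
Sp5 was well above background on 1 array, so the arrays give no comparison for the gene whose promoter carries the motif. A match here is a description of letters, not a binding site.

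The rest of the pathway was read on 5 further lists, 1 probe per gene. Of 22 other Wnt targets 19 were tested, and against MEF 4 were higher and 6 lower in ciNPC, beside 12.8% and 11.2% of all probes. Tnfrsf19, a receptor of the tumour necrosis factor family, was higher by 5.54 (SE 0.18), and T, the mesoderm factor brachyury, was at least 5.38-fold higher. Wisp2 and Wisp1, genes of secreted matricellular proteins, were lower by log2 differences of -5.28 (SE 0.23) and -3.44 (SE 0.25). Against NPC 5 of the 19 were higher and 0 lower, beside 2.71% and 0.0505% of all probes. Wisp1 was at least 212-fold higher, Wisp2 at least 17.7-fold and the mesenchymal factor Twist1 at least 12.6-fold, and Fosl1, a subunit of AP-1, was higher by 2.90 (SE 0.35). Tnfrsf19 and T did not pass against NPC, with log2 differences of -0.51 and -0.04. Wisp1, Wisp2, Twist1 and Fosl1 lay between MEF and NPC on all 3 ciNPC arrays, as the fibroblast markers did in summed level; the part of fibroblast RNA in these values was not tested.

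R-spondins are secreted proteins that strengthen Wnt signals through Lgr receptors. Of the 5 genes tested in this list (Rspo1 to Rspo3, Lgr4 and Lgr6), 2 were lower in ciNPC than in MEF, beside 11.2% of all probes. These were Rspo3, with -3.66 (SE 0.36), and Rspo2, which was well above background on the p5 array but not on the p13 arrays. No exact difference is given for Rspo2. Against NPC, Rspo3 was at least 8.59-fold higher, 1 of 5 tested (2 without p13 replicate 2), beside 2.71% of all probes. Among the 13 partners of beta-catenin and TCF, the corepressor gene Tle4 was at least 14.4-fold higher in ciNPC than in MEF and Tle3 differed by -1.10 (SE 0.22), with a second gene lower without p13 replicate 2. Of the 12 destruction complex and Dishevelled genes Apc was higher by 1.85 (SE 0.27), while Dvl3 differed by -1.65 (SE 0.28) and Axin1, the constitutive relative of Axin2, by -1.13 (SE 0.19). Over all probes 24% passed against MEF, so 2 of 13 and 3 of 12 are not set apart from that share. None of the 5 D cyclins and partners passed against MEF by limma (2 at an unadjusted p under 0.05, beside 15504 of all 35616 probes). These 2, Rb1 with 0.93 and Ccnd3 with -0.41, also had an adjusted p under 0.05 (limma) and missed only the 2-fold threshold. Against NPC none of these 3 lists gave a call by limma, with 2 of 13, 1 of 12 and 2 of 5 genes at an unadjusted p under 0.05. Of all 35616 probes, 4415 were under it in that comparison. Between passages no gene of the 5 lists passed by limma, where both the adjusted p and the 2-fold threshold had to be met. Some had an adjusted p under 0.05 (limma) but a difference below 2-fold, such as Dvl3 with 0.70, Wisp1 with -0.57 and Cd44 with -0.55. At an unadjusted p under 0.05 (limma) were 4 of 19, 0 of 5, 4 of 13, 4 of 12 and 1 of 5, in the order of description, beside 6471 of all 35616 probes.

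**Figure D3:**
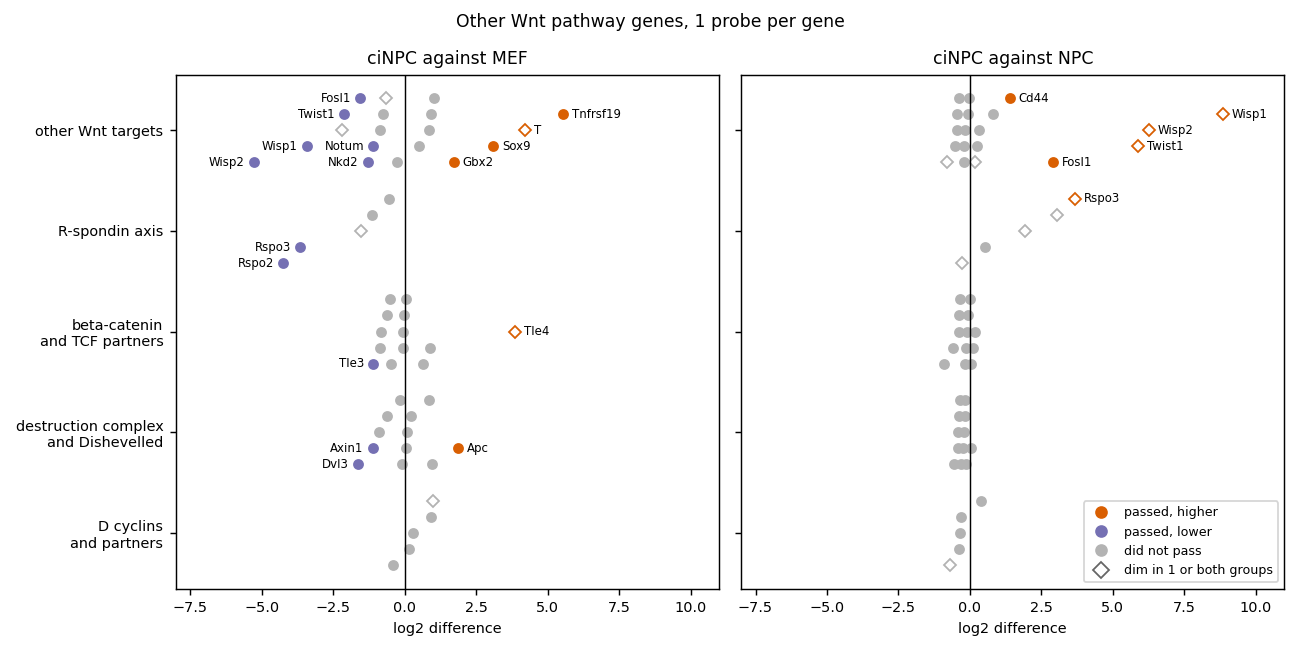
Log2 difference of ciNPC from MEF (left) and from NPC (right), 1 point per gene and 1 row per list; named genes passed, and open diamonds are genes dim in 1 or both groups, whose fitted value is no measured fold. Against MEF, Tnfrsf19 lies highest at 5.54 and Wisp2 lowest at -5.28; against NPC the genes that passed are all higher.

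For 6 of the 7 member probes detected on all 5 arrays, those of Lef1, Tcf7, Nkd1, Lgr5 and Znrf3, the 3 genes with the closest pattern were found by the root mean square difference of centred log2 values over the 5 arrays, among about 14330 probes. Lgr5 was closest to Lars, a leucyl-tRNA synthetase gene (0.120), Plod2, a collagen lysyl hydroxylase gene (0.152), and Vegfa, a vascular growth factor gene (0.161). Lef1 was closest to Pde4dip, Gsdmd and Map3k6 by A_51_P420400 (0.144 to 0.208) and to Bicc1, Cacnb3 and Prss53 by A_55_P2076871 (0.0784 to 0.0912). Tcf7 lay closest to Zfp846, U2af2 and Zfp420 (0.0796 to 0.0975), Znrf3 to Dcaf7, Smarcc1 and Elk3 (0.0526 to 0.0763), and the Nkd1 probe A_55_P1967736 to Kat5, Cic and Smyd2 (0.0143 to 0.0239). With 5 arrays and this many probes such neighbours are a description only.

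**Figure D4:**
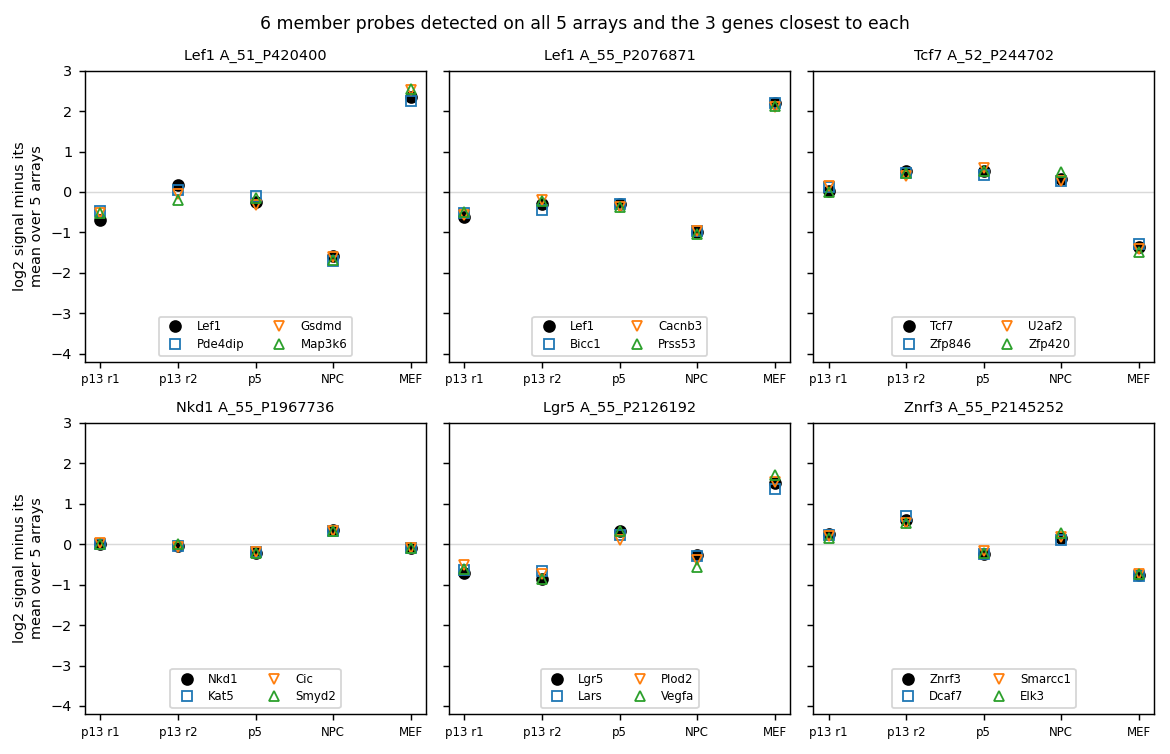
Log2 signal minus its mean over the 5 arrays for 6 member probes detected everywhere (black) and the 3 genes closest to each (open symbols), in the 3 ciNPC arrays, NPC and MEF. Lgr5 and its closest genes are highest in MEF and lower in p13 than in p5; Tcf7 and its closest genes are lowest in MEF.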

How the data were processed

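RNA of 5 samples was read on 1-colour Agilent 60-mer arrays. Spots were extracted by the authors in Feature Extraction (Agilent, 10.7.1.1), per the submitters' processing notes, and the deposited files give each spot's processed signal as an intensity, with the mean and background signals beside it. The design is annotated on mm9, per the file headers. The deposited value table holds log2 values; its columns share 1 distribution (medians 5.65) and correlate at 0.995 to 0.999 with log2 of the processed signals, so it was read as quantile normalised, which the labels do not state, and served as an alternative.

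From these, log2 of the processed signal minus the array's 75th percentile over non-control probes was computed and 35616 probes, those well above background in all samples of 1 or more of the 4 groups, were tested. Limma 3.58.1 (R 4.3.3; lmFit, eBayes with an intensity trend, checked on simulated data) gave ciNPC against MEF and NPC from a fit of 3 groups with 2 residual degrees of freedom, in which the lone MEF and NPC arrays are assumed to vary like ciNPC, and p13 against p5 from a fit of 4 groups. Where a group was not well above background, a fold is a bound against the higher of that probe's value and the lowest well-above-background value of the array. For list genes the brightest probe on average was taken. All 9 genes and 13 probes are named; other lists name up to 4 genes that passed per comparison, those with the largest differences. The genes with a pattern closest to Ccnd1 are not reported here. The members and lists were chosen with earlier results of these data known. Alternatives were normexp background correction (offset 50), quantile normalisation, another percentile base, the deposited table, other filters, 1 probe per gene, no trend and leaving out single arrays. The number of arrays limits the precision.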

Additional observations from a re-analysis of the deposited data

How the results depend on the processing

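No paired analysis was possible because only the p13 arrays carry replicate numbers. Against MEF, 7 member probes passed, 4 with quantile normalisation and 4 in the deposited value table, which lost Axin2 A_55_P2000783, Tcf7 and Lgr5. The other alternatives gave 5 to 8, and leaving out single ciNPC arrays 7 to 8. The count of 5 came with only probes detected on all 5 arrays and with 1 probe per gene. There fewer member probes were tested, and none of those tested lost its call. Axin2 A_66_P134405 did not pass with normexp (adjusted p 0.077, limma) or without the filter (0.0585). With normexp the differences from MEF were smaller, at -1.74 and -2.21 for the Lef1 probes, 1.00 for Tcf7, -1.57 for Lgr5 and 2.86 for Ccnd1. Against NPC the count was 0 throughout. For NPC against MEF 3 probes lay 4-fold apart with normexp and 4 otherwise. The single passage call became 0 with normexp, quantile normalisation, the deposited table, only probes detected on all 5 arrays (adjusted p 0.0581, limma), 1 probe per gene (0.0594) or no trend (0.687); with 1 array left out that fit has no residual degrees of freedom. The cause was not tested. Over all probes, calls against NPC numbered 984. They were fewer with quantile normalisation (577), in the deposited table (574), with detection on all arrays (598), with 1 probe per gene (839) and without the trend (330). More came with normexp (1023), the percentile over detected probes (1099), no filter (1020) and single ciNPC arrays left out. Passage calls numbered 232, with 502 under normexp, 3 under quantile normalisation and 357 with the percentile over detected probes. They numbered 3 in the deposited table, 95 with detection on all arrays, 140 with 1 probe per gene and 0 without the trend.

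The percentile over detected probes moved the median of all probes against MEF to 0.06, from -0.08, and the higher share of calls against MEF was 53.2%, 61.9% with that percentile and 48.3% to 55.2% in the other alternatives; among passage calls the higher share was 66.8%, against 80.1% with that percentile 52.6% with detection on all arrays and 100% of 3 calls with quantile normalisation or in the deposited table. Differences that did not pass changed sign. Against MEF, Nkd1 A_55_P1967736 gave 0.0486 with quantile normalisation, 0.0474 in the deposited table and 0.14 with the percentile over detected probes, and -0.0486 to 0.0706 with arrays left out. Against NPC, Axin2 A_66_P134405 gave 0.23 with normexp and 0.0827 with that percentile, Sp5 0.28 with normexp, Tcf7 -0.11 under both quantile normalisation and the deposited table, and Znrf3 -0.0926 and -0.0924 under them. With arrays left out the ranges against NPC were -0.26 to 0.20 for Axin2 A_66_P134405, -0.0515 to 0.20 for Tcf7, -0.95 to 0.22 for Sp5, -0.50 to 0.0909 for Lgr5 and -0.16 to 0.26 for Znrf3. For p13 against p5, normexp gave 0.13 for Axin2 A_55_P2000783, 0.24 for Lef1 A_51_P420400 and 0.11 for Rnf43, and the percentile over detected probes 0.0703 for that Lef1 probe.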
